A study of Mus musculus with 9 samples.

Results

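Dense clusters of distal peaks are stretches of the genome in which many accessible sites lie close together, away from genes' ends. They were chosen by position alone. A peak counted as distal when its centre lay more than 2 kb from both ends of every protein-coding gene. Neighbouring distal peaks on a chromosome were joined when their centres lay at most 12.5 kb apart, and joined groups of at least 5 peaks were kept and are called dense groups below. Of the 75936 peaks of the table, 15770 (20.8%) were members, in 2208 dense groups. These were 26.5% of the 59462 distal peaks and 7.49% of the 29467 joined groups of any size. Of the other peaks, 27092 were distal in groups of 2 to 4, 16600 were distal and joined to no other, and 16474 lay within 2 kb of a gene end.

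Open chromatin was profiled by bulk ATAC-seq, which uses a transposase to tag accessible DNA for sequencing. The 9 libraries came from D2A1-d, a murine mammary carcinoma cell line. There were 3 libraries with the hairpin shMed1 #2, 3 with shMed1 #4 and 3 with a non-targeting control hairpin (NTC). The labels give the genotype as Med1 Knockdown for both hairpin groups and WT for NTC, and name all cells untreated, so the groups share the line and the transduction and differ in the hairpin. The comparison asks what lowering Med1, a subunit of the Mediator coactivator complex, does to open chromatin. A hairpin acts on the transcript, so accessibility at the gene does not check the knockdown. The 1 peak at an end of Med1 (chr11:98192989-98193490) averaged 2023 ± 143 with shMed1 #2, 1971 ± 73.1 with shMed1 #4 and 2114 ± 41.3 with NTC (normalised counts, SD, n = 3), and passed the test with neither hairpin. The labels call the libraries biological replicates without describing the cultures, so a p-value reflects only how these libraries scatter, which may be technical.

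Enhancers are regulatory sequences that bind transcription factors away from genes' start sites, and their DNA is open to the transposase when they are occupied. Where many enhancers lie close together and bind large amounts of Mediator they have been called super-enhancers, and such stretches are known to lie near genes that set a cell's identity and near microRNA genes. Mediator binding was not measured in these libraries, so the dense groups are described by accessibility only and are not called super-enhancers here. In a bulk sample, fewer cells with an open site and less opening per cell cannot be told apart.

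The sequences below lie at dense groups with large NTC sums, and not all of them lie at a peak that changed. The first set holds mature microRNAs whose hairpins lie inside 3 of the 12 dense groups with the largest NTC sums, from RefSeq (GRCm38.p6), with the seed (bases 2 to 8) in capitals. MicroRNAs are short RNAs that pair through the seed with target transcripts and lower their output.
miR-23a-3p (Zswim4 group): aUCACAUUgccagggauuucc
miR-27a-3p (Zswim4 group): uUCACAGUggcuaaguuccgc
miR-24-3p (Zswim4 group): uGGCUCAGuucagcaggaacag
miR-29a-3p (Klf14 group): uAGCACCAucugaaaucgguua
miR-29b-3p (Klf14 group): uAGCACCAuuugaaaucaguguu
let-7c-5p (Ppara group): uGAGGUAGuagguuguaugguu
let-7b-5p (Ppara group): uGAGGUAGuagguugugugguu
miR-29a-3p and miR-29b-3p share a seed, and so do let-7c-5p and let-7b-5p, while the 3 microRNAs of the Zswim4 group have different seeds.

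The second set holds promoter windows (250 bases before to 50 after a start site) from RefSeq (GRCm38.p6) that overlap a member peak. Members could overlap such a window because the rule used the ends of protein-coding genes as annotated and not lncRNA genes or other start sites. The letters TGANTCA, which read the same on both strands and are those that AP-1 factors such as FOS and JUN are known to bind, stand in capitals. The 4 windows were chosen after their values were seen, to show 1 peak that rose with both hairpins, 1 that did not pass the test, and 2 that fell with at least 1 hairpin.
Gm32287 (minus strand, chr2:167777365-167777664): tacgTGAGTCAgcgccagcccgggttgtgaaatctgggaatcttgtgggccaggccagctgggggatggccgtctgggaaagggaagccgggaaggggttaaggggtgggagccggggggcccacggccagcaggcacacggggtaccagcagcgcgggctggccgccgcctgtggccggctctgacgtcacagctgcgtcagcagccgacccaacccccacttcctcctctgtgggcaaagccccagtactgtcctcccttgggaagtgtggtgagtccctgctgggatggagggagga
Lmna (minus strand, chr3:88503303-88503602): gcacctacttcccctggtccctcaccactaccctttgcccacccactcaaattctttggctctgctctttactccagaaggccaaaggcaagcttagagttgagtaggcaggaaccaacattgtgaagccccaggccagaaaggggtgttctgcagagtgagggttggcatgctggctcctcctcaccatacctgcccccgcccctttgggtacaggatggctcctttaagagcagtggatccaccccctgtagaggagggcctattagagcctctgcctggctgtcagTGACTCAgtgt
D130051D11Rik (plus strand, chr15:85634346-85634645): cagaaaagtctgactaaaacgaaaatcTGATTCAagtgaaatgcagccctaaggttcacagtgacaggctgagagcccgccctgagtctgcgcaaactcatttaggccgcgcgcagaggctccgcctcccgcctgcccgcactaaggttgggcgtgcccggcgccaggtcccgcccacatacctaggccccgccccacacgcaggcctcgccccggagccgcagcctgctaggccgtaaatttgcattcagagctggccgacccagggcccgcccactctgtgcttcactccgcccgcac
Malat1 (minus strand, chr19:5802623-5802922): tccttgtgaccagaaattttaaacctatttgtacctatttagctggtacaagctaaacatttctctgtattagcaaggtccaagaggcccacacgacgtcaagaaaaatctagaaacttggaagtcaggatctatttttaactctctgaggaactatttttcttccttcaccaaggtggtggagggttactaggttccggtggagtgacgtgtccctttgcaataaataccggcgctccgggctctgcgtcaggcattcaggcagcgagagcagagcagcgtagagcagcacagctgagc
The match stood at position 5 of the Gm32287 window, 290 of the Lmna window and 28 of the D130051D11Rik window, counted from each window's 5′ end. The first 2 lay inside the peak and the third outside it. The Malat1 window held no match.

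The dense groups were mostly short runs. A group held 5 to 42 peaks with a median of 6, and 808 groups held exactly 5, 309 held 10 or more and 26 held 20 or more. Their spans ran from 3.57 to 213 kb with a median of 29.0 kb and added up to 72.3 Mb. The median gap between neighbouring centres was 5.00 kb, well below the joining limit, although 254 groups held a gap over 12 kb. Of the member peaks, 60.2% lay in the body of a protein-coding gene, against 52.8% of the other distal peaks.

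Every peak was 501 bases long, so values can be compared between peaks and summed over a group. The values are normalised counts, that is, reads divided by the library's size factor. The NTC sum of a group ran from 225.5 to 35067 with a median of 2594, and 458 groups (20.7%) held the first 50% of the NTC value of all dense groups. The 12 with the largest sums held 3.96% and the first 100 held 18.7%. The strongest peak of a group made up a median of 37.6% of its NTC sum. A group is named here for the gene whose body held the largest number of its peaks (1574 groups) or for the nearest gene end (634 groups, at a median of 29.6 kb), which is a place and not a tested target. The 2208 groups fell to 1870 genes, and the gene with most groups was Asap1, an ARF GTPase-activating protein of focal adhesions and podosomes, with 6. At the limit of the rule, the 808 groups of exactly 5 peaks had a median NTC sum of 1835 and median log2 changes of 0.14 with shMed1 #2 and 0.078 with shMed1 #4, and the 1455 groups of exactly 4 had a median NTC sum of 1179.8 and changes of 0.099 and 0.057 with the same hairpins.

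Depth, read from the step between neighbouring values of a library, was 34.8 to 53.7 M reads in peaks, and the median peak of a library held 162 to 252 reads. The totals of the normalised counts were 43.1 to 44.2 M in the hairpin libraries and 41.2 to 41.5 M in NTC. Of the 6 epithelial, mesenchymal, blood, endothelial, neural and fat marker lists, the mesenchymal list had a peak at all 6 genes with summed means of 12039 in shMed1 #2, 13109.8 in shMed1 #4 and 13160.5 in NTC. The epithelial list had a peak at 1 of 8 genes (Krt18), with summed means of 120.6, 172 and 209 in the same groups, and Epcam and Cdh1 had none at their ends. The blood list had peaks at 4 of 6 genes with summed means of 2821, 2892 and 2874, with none at Ptprc or Cd3e and most of the sum at Cd68 (1923, 1963 and 1856) and Spi1 (639, 673 and 797). The endothelial list had 1 of 4, the neural list 2 of 4 and the fat list 0 of 3. The part of these levels in the results below was not tested.

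Dense groups were more accessible on balance with either hairpin. Of the 2208 groups, the summed value was higher with shMed1 #2 in 1341 (60.7%) and lower in 220 (9.96%), where 29.2% and 18.7% of all joined groups tested were called. With shMed1 #4, 1082 (49.0%) were higher and 190 (8.61%) lower, where 20.6% and 11.8% of all joined groups were called. The 2 sets differ in strength. The median NTC sum was 2594 in dense groups and 288 over all joined groups, of which 16600 were single peaks. A stronger sum has more reads behind it, and the part of this in the shares, here and below, was not tested. Sums were tested on log2(sum + 1) in a limma fit over all 29465 joined groups that passed a mean of 10, with Benjamini-Hochberg adjustment and a threshold of 0.05. The median log2 change of the dense groups was 0.17 with shMed1 #2 and 0.11 with shMed1 #4, against 0.014 and -0.0033 over all joined groups. Both contrasts use the same NTC libraries, so they are not independent. By call, 965 groups were higher with both hairpins, 106 lower with both, 25 were called in opposite directions, and 471 with neither. These were 43.7%, 4.80%, 1.13% and 21.3% of the dense groups, against 15.9%, 6.58%, 1.12% and 43.3% of all joined groups.

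A smaller share of the single peaks than of the sums passed the test. Of the 15770 members, 15769 passed the filter on low values. With shMed1 #2, 5202 were higher (32.99%) and 2034 lower (12.9%), where 23.6% and 19.5% of all 75930 peaks tested were called. With shMed1 #4, 3911 were higher (24.8%) and 1332 lower (8.45%), where 17.3% and 12.1% of all peaks were called. Leaving out NTC replicate 2 or 3 put the share of members lower with shMed1 #4 at 5.14% and 4.97%. The median log2 change of members was 0.093 with shMed1 #2 and 0.058 with shMed1 #4. It was 0.022 and -0.0011 for distal peaks in groups of 2 to 4, -0.056 and -0.048 for distal peaks joined to no other, and -0.092 and -0.046 for peaks within 2 kb of a gene end. No test between these classes was run, since peaks are not replicates.

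The balance between higher and lower depends on how the libraries are scaled. Setting all libraries to equal totals put the median of all peaks at -0.10 with shMed1 #2 and -0.081 with shMed1 #4, against -0.016 and -0.012 with the deposited size factors. The dense groups then split into 46.6% higher and 18.8% lower with shMed1 #2, and 34.1% higher and 17.3% lower with shMed1 #4. The median of the member peaks was then 0.0071 with shMed1 #2 and -0.012 with shMed1 #4, and it stayed above that of the other 3 classes under the deposited factors, equal totals, quantile scaling and cyclic loess.

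As a share of all normalised counts of a library, which no scaling by a single factor can move, the members held 20.05%, 20.47% and 20.91% with shMed1 #2, 19.97%, 19.97% and 19.79% with shMed1 #4, and 19.01%, 18.70% and 18.60% with NTC. All 6 hairpin libraries lay above all 3 NTC libraries. Members made up 20.8% of the peaks, so their share of the counts lay below their share of the peaks in all but 1 library.

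The share called higher was larger among groups with more peaks and larger sums. Of the 309 groups with 10 or more peaks, 226 were higher and 21 lower with shMed1 #2, and 198 were higher and 22 lower with shMed1 #4. Of the 26 with 20 or more, 25 were higher and 1 lower with shMed1 #2, and 24 were higher and 0 lower with shMed1 #4. Over all dense groups, 60.7% and 49.0% were higher and 9.96% and 8.61% lower with these hairpins. Median NTC sums were 6388 with 10 or more peaks and 13544 with 20 or more, against 2594 over all dense groups. The part of strength in the counts by peak number was not tested. Groups were ordered by strength on the mean of the other hairpin. In the weakest quintile, the median log2 change was -0.032 with shMed1 #2 (82 higher and 108 lower of 442) and -0.031 with shMed1 #4 (71 higher and 78 lower). In the strongest quintile it was 0.25 with shMed1 #2 (395 higher and 7 lower of 442) and 0.20 with shMed1 #4 (373 higher and 1 lower). Under cyclic loess the weakest quintile had medians of 0.0091 and 0.0097 instead, and the strongest stayed above 0 under all 4 scalings. Ranked by NTC instead, the weakest quintile had 99 higher and 96 lower with shMed1 #2 (median -0.013) and 86 higher and 66 lower with shMed1 #4 (-0.015), and the strongest had 375 higher and 16 lower with shMed1 #2 (0.24) and 346 higher and 7 lower with shMed1 #4 (0.18). Neither ranking is independent of the changes, and the reads behind a sum grow with its strength, whose part in the counts was not tested.

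The rise of strong peaks was not particular to dense groups, and within quintiles of strength members still had the highest median. These quintiles rest on a mean that includes the hairpin libraries, so they are not independent of the changes. Strength also varied within a quintile, from 915 to 9883 in the strongest. Among all peaks in the strongest quintile by their mean over 9 libraries, members were higher with shMed1 #2 in 70.5%, distal peaks of groups of 2 to 4 in 66.7%, distal peaks joined to no other in 62.9% and peaks near gene ends in 17.6%. With shMed1 #4 these shares were 62.4%, 56.3%, 52.7% and 22.5%. In the weakest quintile, 6.34% of members were higher with shMed1 #2, against 5.74%, 4.34% and 3.97% of the other classes. Within every quintile the median of the members lay above that of distal peaks in groups of 2 to 4, and that above the median of peaks joined to no other, with both hairpins and under all 4 scalings. The sign of the weakest quintile's median did depend on scaling: with shMed1 #2 the members had -0.044 there with the deposited factors, -0.13 with equal totals, 0.049 with quantile scaling and 0.061 with cyclic loess.

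**Figure D1:**
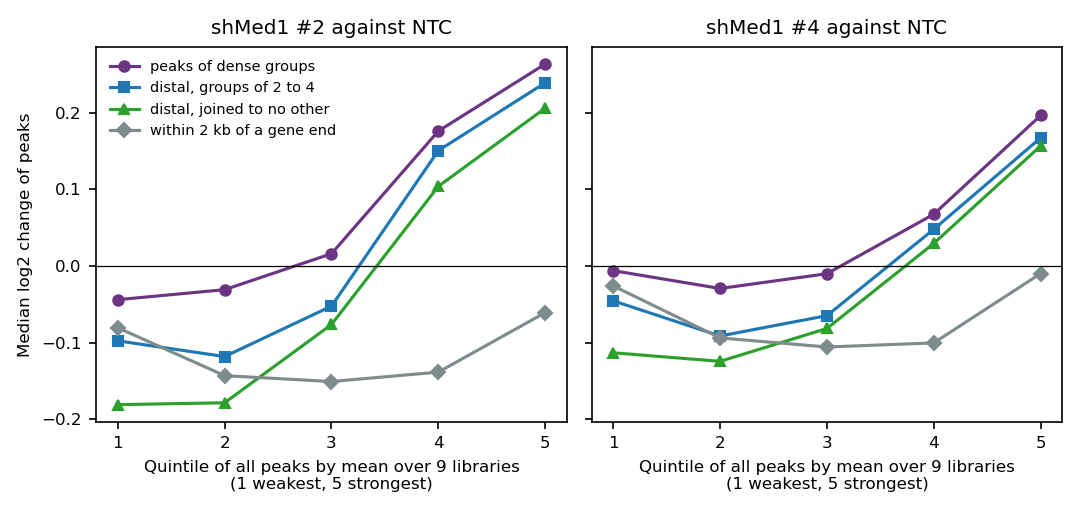
Median log2 change of peaks against NTC (vertical axis) by quintile of all peaks ranked on their mean over 9 libraries (horizontal axis, 1 weakest), for shMed1 #2 on the left and shMed1 #4 on the right; lines join the medians of a class of peaks. The members of dense groups reach 0.26 and 0.20 in the strongest quintile, while peaks within 2 kb of a gene end stay below 0 in every quintile with the deposited factors (in the weakest they were above 0 under quantile scaling and cyclic loess).

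Many groups held peaks called in both directions. Of single members, 32.99% were higher and 12.9% lower with shMed1 #2, where 23.6% and 19.5% of all peaks were called. With shMed1 #4 these shares were 24.8% and 8.45% of members, and 17.3% and 12.1% of all peaks. At such shares a group of several peaks can hold both kinds, and whether peaks of a group moved together was not tested. With shMed1 #2, 2065 of the 2208 groups held at least 1 called peak, and 859 of these held higher peaks only, 293 lower peaks only and 913 both. With shMed1 #4, 1905 groups held a called peak, 1008 with higher peaks only, 360 with lower peaks only and 537 with both. Of the 1341 groups whose sum was higher with shMed1 #2, 586 held a lower peak, and with shMed1 #4 this was 279 of 1082. All peaks of a group were higher in 23 groups with shMed1 #2 and 9 with shMed1 #4, and all were lower in 3 and 1.

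Sums followed the strong peaks. For each hairpin, the strongest and weakest peaks of a group were picked here on the mean of the other hairpin. This choice is not independent of changes that the hairpins share. The strongest peak had a larger log2 change than the weakest in 1462 groups (66.2%) with shMed1 #2 and 1435 (65.0%) with shMed1 #4. The median change was 0.22 for the strongest peaks and -0.0070 for the weakest with shMed1 #2, and 0.17 and -0.0092 with shMed1 #4. When each peak counted equally, as the mean of log2 values over a group, 28.5% of dense groups were higher and 5.03% lower with shMed1 #2, and 17.6% higher and 2.85% lower with shMed1 #4. Of the 165 calls made at the groups named by rule, for either hairpin against NTC or between them, 75 no longer passed with this weighting. Among these were the Klf14 call with shMed1 #2 (0.061) and both calls against NTC at Fndc3b group 1, Crim1 group 1, Col5a1 group 1, Bcar1, Myc group 1, Kmt2d and Cdh5, all described below.

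Dense groups lay on all 20 chromosomes of the table. Members made up 29.9% of the peaks of chromosome 8 and 29.0% of those of chromosome 15, and 7.10% of those of the X chromosome. The median log2 change of the dense groups was above 0 on every chromosome, from 0.11 to 0.23 with shMed1 #2 and from 0.028 to 0.20 with shMed1 #4. The median of peaks within 2 kb of a gene end was below 0 on every chromosome with both hairpins. With equal totals the dense-group median was above 0 on 18 of the 20 chromosomes with shMed1 #4.

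**Figure D2:**
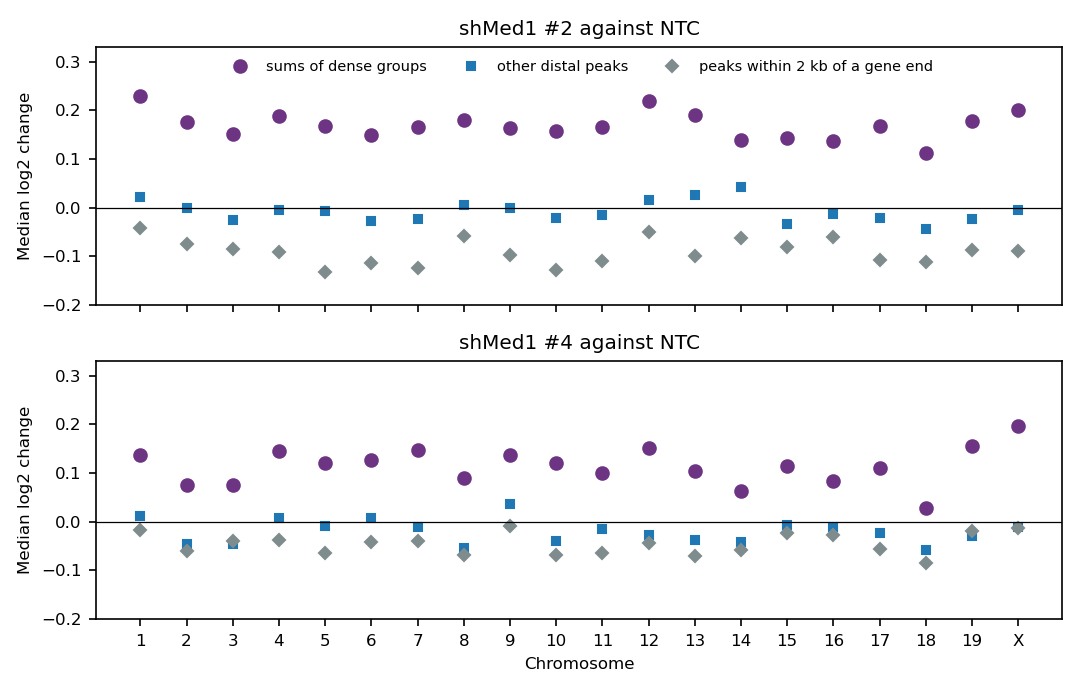
Median log2 change against NTC (vertical axis) for each chromosome (horizontal axis), with shMed1 #2 above and shMed1 #4 below; circles are sums of dense groups, squares other distal peaks and diamonds peaks near gene ends. The circles lie between 0.11 and 0.23 with shMed1 #2 and between 0.028 and 0.20 with shMed1 #4, above 0 on each chromosome.

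The 12 dense groups with the largest NTC sums were those of Frmd8, Plec, Zswim4, Klf14, Lmna, Baiap2, Zmiz1 (group 1), Ppara, Arhgap23, Actn1, Irf2bp2 (group 1) and Ppard. Plec encodes plectin, which links cytoskeletal filaments, Actn1 an actin cross-linker, Baiap2 an actin regulator at membrane protrusions and Lmna the nuclear lamins A and C. Of the 12, 11 were higher with both hairpins, and Ppara was the exception. Most strong groups were higher. Of the 442 dense groups in the strongest quintile by NTC sum, 375 were higher and 16 lower with shMed1 #2, and 346 higher and 7 lower with shMed1 #4. With equal totals, 10 of the 12 were called higher and 1 lower with shMed1 #2, and 10 higher and 1 lower with shMed1 #4. With peaks weighted equally, 5 were called higher and 1 lower with shMed1 #2, and 4 higher and 0 lower with shMed1 #4. Plec (0.023 and 0.071), Actn1 (0.16 and 0.10) and Irf2bp2 group 1 (0.12 and 0.12) then passed with neither, and Ppard (0.13) not with shMed1 #4.

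**Figure D3:**
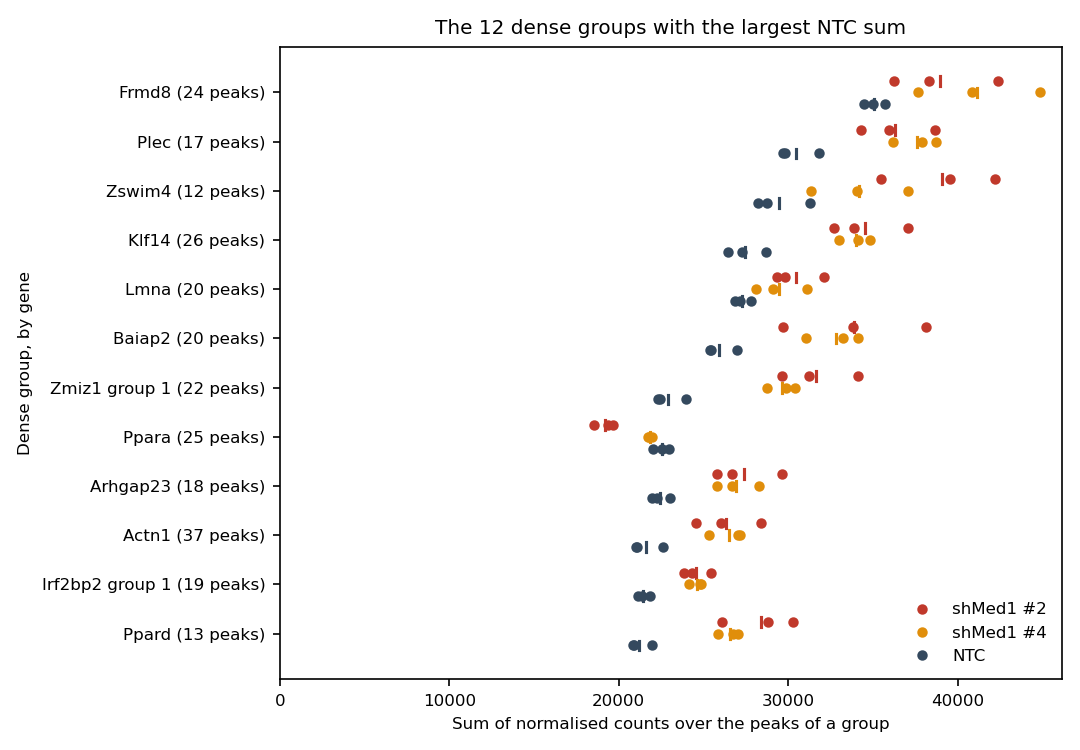
Summed normalised count (horizontal axis) of the 12 dense groups with the largest NTC sum (vertical axis, with the number of peaks); each point is a library, each bar a mean of 3, with shMed1 #2, shMed1 #4 and NTC from top to bottom in a row. All hairpin points lie right of the NTC points for the Plec group, and left of them for the Ppara group.

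The Frmd8 group held the largest NTC sum of all (chr19:5780125-5848759, 24 peaks). It lay 36.5 kb from the nearest end of Frmd8 and spanned the lncRNA genes Malat1 and Neat1, which encode abundant nuclear RNAs of speckles and paraspeckles. Its summed value was 36216, 38292 and 42393 with shMed1 #2, 44845, 40874 and 37647 with shMed1 #4, and 35729, 34989.9 and 34481 with NTC. Every hairpin library lay above every NTC library, by log2 changes of 0.15 ± 0.0366 with shMed1 #2 (SE, limma, adjusted p = 0.000637) and 0.23 ± 0.0366 with shMed1 #4 (adjusted p = 1.56e-06). The change with shMed1 #2 was 0.063 with equal totals, 0.031 with quantile scaling and 0.047 with cyclic loess, where it no longer passed, and neither call held with peaks weighted equally (0.15 and 0.20).

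Peaks of the Frmd8 group moved in both directions. The peak at the start of Malat1, which overlaps the 3′ edge of the window shown above (chr19:5802133-5802634), had 1384, 1208 and 1431 with shMed1 #2, 1905, 1623 and 1828 with shMed1 #4, and 1980.4, 2138 and 2166 with NTC. All hairpin values lay below all NTC values. The log2 change was -0.65 ± 0.0593 with shMed1 #2 (limma, adjusted p = 9.61e-13) and -0.23 ± 0.0593 with shMed1 #4 (adjusted p = 0.00215). A peak at chr19:5794125-5794626 had 751, 814 and 902 with shMed1 #2, 1155, 862 and 625 with shMed1 #4, and 419.9, 425 and 398 with NTC. Here all hairpin values lay above all NTC values, with log2 changes of 0.98 and 1.04. With shMed1 #2, 11 peaks of the group rose and 4 fell, and with shMed1 #4, 15 rose and 4 fell.

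The Zswim4 group (chr8:84186423-84229247, 12 peaks) held the hairpins of miR-23a, miR-27a and miR-24-2, which are processed from 1 primary transcript. Its summed value was 35503, 39576 and 42199 with shMed1 #2, 37061, 34085 and 31363 with shMed1 #4, and 31311, 28748 and 28226 with NTC. Every hairpin library lay above every NTC library, although shMed1 #4 replicate 3 and NTC replicate 1 nearly met. The log2 change was 0.41 ± 0.0391 with shMed1 #2 (limma, adjusted p = 4.66e-13) and 0.21 ± 0.0391 with shMed1 #4 (adjusted p = 1.63e-05), and the sign with shMed1 #4 did not hold under quantile scaling (-0.046), nor its call under cyclic loess (0.034) or with peaks weighted equally (0.14).

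The peak over the miR-27a and miR-24-2 hairpins, beside that of miR-23a (chr8:84208664-84209165), changed most among the peaks of the group. It had 772, 1170.1 and 1503 with shMed1 #2, 1394, 1209.9 and 800.1 with shMed1 #4, and 590.0, 584 and 523 with NTC. All hairpin values lay above all NTC values, with a wide spread among the hairpin libraries. The log2 change was 0.97 ± 0.123 with each hairpin (limma, adjusted p = 7.64e-09 with shMed1 #2 and 2.08e-08 with shMed1 #4).

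The Klf14 group (chr6:31033023-31156257, 26 peaks) lay 135.7 kb from the nearest end of Klf14, a Krüppel-like transcription factor, and spanned the lncRNA gene Lncpint and the hairpins of miR-29a and miR-29b-1. The miR-29 family is known to act on transcripts of collagens and other matrix proteins. The summed value was 32708, 33858 and 37080.4 with shMed1 #2, 34113, 34841 and 33014 with shMed1 #4, and 28694, 27266 and 26455 with NTC. The hairpin groups did not overlap NTC, and the log2 change was 0.33 ± 0.0316 with shMed1 #2 and 0.31 ± 0.0316 with shMed1 #4 (limma, adjusted p = 4.85e-13 and 1.67e-11). Its strongest peak (chr6:31100210-31100711) averaged 6858 ± 549.9 with shMed1 #2, 6715 ± 302 with shMed1 #4 and 4678 ± 341 with NTC.

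The Ppara group (chr15:85634507-85727395, 25 peaks) went the other way with 1 hairpin. It lay 54.0 kb from the nearest end of Ppara, the nuclear receptor for fatty acids, and spanned the hairpins of let-7c-2 and let-7b, whose family is known for limiting growth-promoting transcripts. The summed value was 19370.1, 18524 and 19643 with shMed1 #2, 21773, 21988 and 21734 with shMed1 #4, and 22029, 22573 and 22968 with NTC. The shMed1 #2 libraries lay below all others, while those of shMed1 #4 lay just below NTC. The log2 change was -0.23 ± 0.0292 with shMed1 #2 (limma, adjusted p = 1.6e-09) and -0.045 ± 0.0292 with shMed1 #4 (adjusted p = 0.243). Of its 25 peaks, 17 were lower and 2 higher with shMed1 #2, and 3 were lower and 2 higher with shMed1 #4. The strongest, at the start window of the lncRNA gene D130051D11Rik shown above, had 3738, 3604 and 3620.1 with shMed1 #2, 4164, 4145 and 3966 with shMed1 #4, and 4000.2, 4449 and 4631 with NTC. Its log2 change was -0.25 ± 0.0426 with shMed1 #2, and with shMed1 #4 it was -0.089 ± 0.0426, which did not pass.

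**Figure D4:**
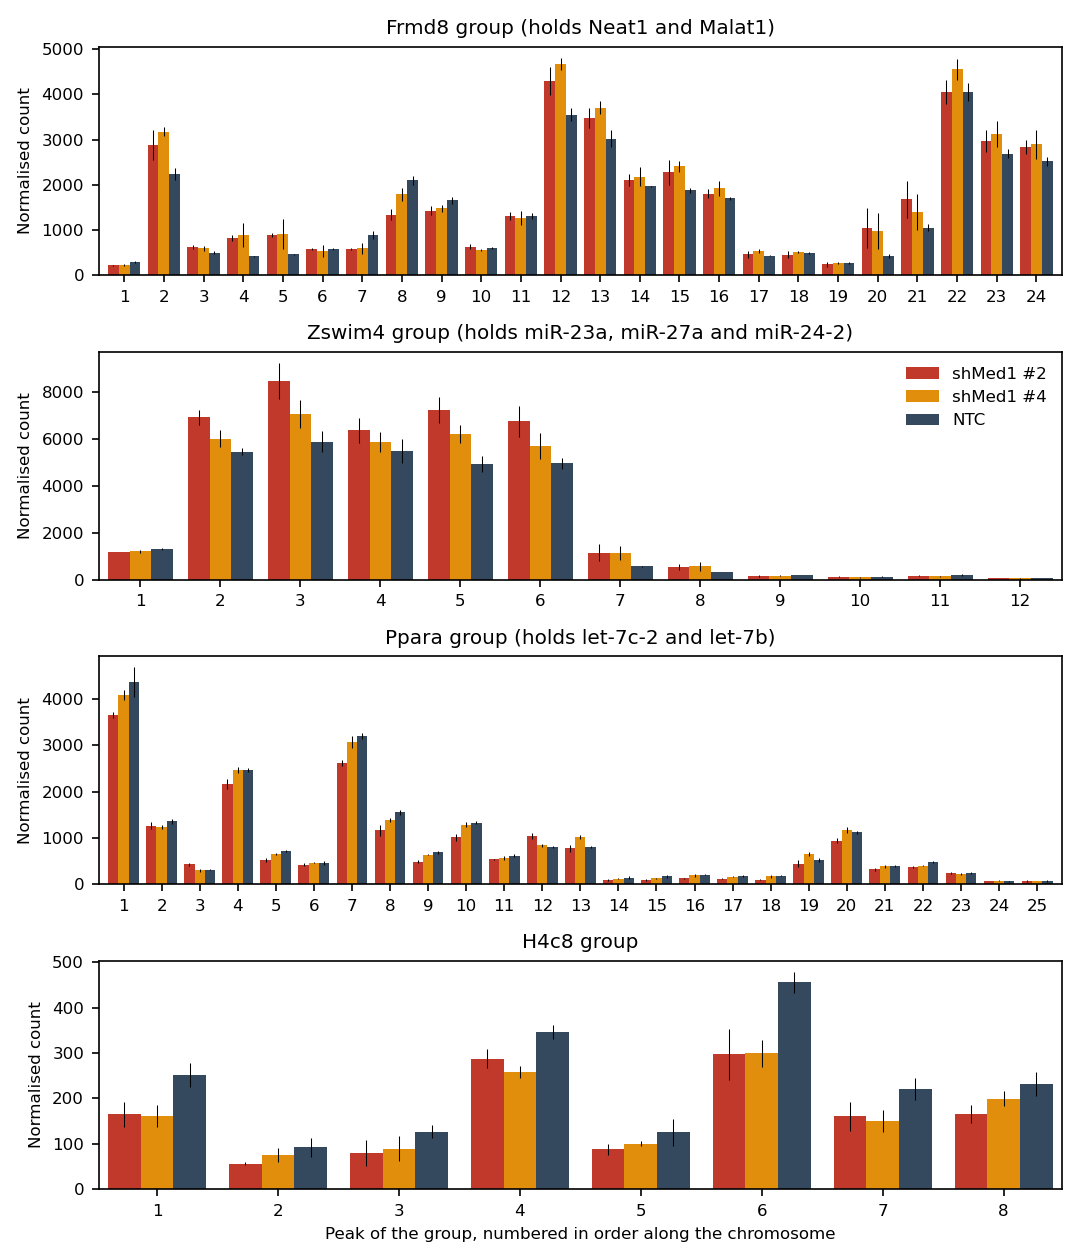
Mean normalised count (vertical axis, error bars SD of 3 libraries) of every peak of 4 dense groups, numbered in order along the chromosome (horizontal axis), with bars for shMed1 #2, shMed1 #4 and NTC. In the Frmd8 group peak 8 lies at the start of Malat1, and in the Zswim4 group peak 7 lies over microRNA hairpins; all 8 peaks of the H4c8 group are below NTC with both hairpins.

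Among the rest of the 12, the Zmiz1 group 1 changed most. Zmiz1 encodes a PIAS-like transcriptional coactivator. Its 22 peaks (chr14:25461349-25589705) summed to 29624, 31223 and 34093 with shMed1 #2, 29850.0, 30390.2 and 28739 with shMed1 #4, and 23995, 22410.3 and 22286 with NTC. The groups were far apart, with log2 changes of 0.47 ± 0.0329 and 0.37 ± 0.0329 (limma, adjusted p = 1.13e-17 and 1.63e-13), and 14 of its peaks rose with shMed1 #2 and 16 with shMed1 #4. The Ppard group, in the gene of another fatty acid receptor, was higher by 0.42 ± 0.0329 and 0.32 ± 0.0329. The Lmna group was higher by 0.16 ± 0.0310 and 0.11 ± 0.0310. Its call with shMed1 #2 was lost under quantile scaling (0.031), under cyclic loess (0.056) and with peaks weighted equally (0.064). Its call with shMed1 #4 was lost without shMed1 #4 replicate 1 (0.068, limma, adjusted p = 0.137) and with equal totals (0.039). The sign with shMed1 #4 did not hold under quantile scaling (-0.017) and cyclic loess (-0.0019). The strongest Lmna peak, over the window shown above, averaged 4781 ± 200 with shMed1 #2, 5146.5 ± 167 with shMed1 #4 and 4841 ± 92.9 with NTC and passed with neither, although with shMed1 #4 it was called lower under quantile scaling (-0.17) and cyclic loess (-0.088).

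The longest dense groups rose as well. Fndc3b group 1, in the gene of a fibronectin type III domain protein, had most peaks (42, over 213 kb) and summed to 25125, 26290.0 and 28378 with shMed1 #2, 24613, 25215 and 23336 with shMed1 #4, and 20774, 19642 and 19414 with NTC. None of its peaks fell, and 17 rose with shMed1 #2 and 11 with shMed1 #4, with log2 changes of the sum of 0.41 and 0.29. Crim1 group 1 (38 peaks, 169 kb), in the gene of a BMP-binding membrane protein, had 0.28 and 0.19, and Col5a1 group 1 (38 peaks), in a collagen V gene, 0.23 and 0.19. The Cald1 group (36 peaks, 144 kb), in the gene of the actin-binding protein caldesmon, had 0.10 and 0.14. Weighting each peak equally gave -0.033 and -0.0067 for Crim1 group 1 and -0.15 and -0.11 for Cald1. The Cald1 call with shMed1 #2 was lost without shMed1 #2 replicate 3 (0.066) or NTC replicate 2 (0.090). It depended on the deposited size factors too, since the change fell to 0.017 under equal totals, 0.048 under quantile scaling and 0.049 under cyclic loess. None of these values passed. With shMed1 #4 the Cald1 change under equal totals was 0.071, which did not pass.

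The dense group that rose most with shMed1 #4 also stood near the top with shMed1 #2. Ifrd1 group 2 (chr12:40205414-40215871), in the gene of a transcriptional coregulator, was first with shMed1 #4 and second with shMed1 #2. Its summed value was 1167, 1291 and 1172 with shMed1 #2, 1588, 1254 and 988 with shMed1 #4, and 688, 702 and 662 with NTC. The groups did not overlap, and the log2 change was 0.82 ± 0.0800 with shMed1 #2 and 0.87 ± 0.0800 with shMed1 #4 (limma, adjusted p = 8.05e-13 and 6.13e-13). All 7 of its peaks rose with both hairpins.

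With shMed1 #2 the first was Gm6569 group 1 (0.84 ± 0.0456), followed after Ifrd1 group 2 by Atp11a (0.80 ± 0.0459), the gene of a phospholipid flippase, Cdc42bpb (0.75 ± 0.0508), that of a kinase bound by CDC42, and Cyp26b1 group 2 (0.73 ± 0.0685), 149.99 kb from the gene of a retinoic acid-clearing enzyme. With shMed1 #4 these 4 changed by 0.44, 0.21, 0.22 and 0.20, and the Cdc42bpb value had the opposite sign with peaks weighted equally (-0.027). The Gm6569 group 1 sums were 4203, 4424 and 4611 with shMed1 #2, 3458, 3168 and 3388 with shMed1 #4, and 2628, 2377 and 2372 with NTC, in that order without overlap. After Ifrd1 group 2, the largest with shMed1 #4 were Rcor1 (0.70 ± 0.0883), the gene of the corepressor CoREST, Setd3 (0.68 ± 0.0564), that of the actin histidine methyltransferase, Prcp (0.64 ± 0.0601) and Rars2 (0.64 ± 0.0903). With shMed1 #2 these 4 changed by 0.54, 0.56, 0.38 and 0.22, and the Rars2 call was lost without shMed1 #2 replicate 3 (0.034) or NTC replicate 1, 2 or 3 (0.23, 0.20 and 0.24). The Cyp26b1 group 2 call with shMed1 #4 was lost without shMed1 #4 replicate 2 or 3 or NTC replicate 3 (0.18, 0.16 and 0.18).

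The H4c8 group fell most with shMed1 #2 and the Gas7 group with shMed1 #4. The H4c8 group (chr13:23500676-23525096, 8 peaks), 18.2 kb from a histone H4 gene, had 1473, 1253 and 1160.2 with shMed1 #2, 1402, 1245 and 1349.8 with shMed1 #4, and 1739.6, 1853 and 1955 with NTC. All hairpin libraries lay below all NTC libraries, and the log2 change was -0.52 ± 0.0614 with shMed1 #2 and -0.47 ± 0.0614 with shMed1 #4 (limma, adjusted p = 2.96e-10 and 1.02e-08). All 8 peaks fell with shMed1 #2 and 5 with shMed1 #4. Gas7 encodes a growth arrest-specific protein. Its group (chr11:67514467-67539061, 5 peaks) had 1156, 1252 and 1258 with shMed1 #2, 897, 919.6 and 1096 with shMed1 #4, and 1644, 1443 and 1473 with NTC. It was first among the lowered with shMed1 #4, at -0.65 ± 0.0630, and had -0.31 ± 0.0630 with shMed1 #2, and all 5 of its peaks fell with shMed1 #4.

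With shMed1 #2 the next were Zpld1 (-0.50), Pard6b (-0.50), which encodes a cell polarity protein, Rbm19 (-0.49), for ribosome assembly, and Fgfr1 (-0.47), a fibroblast growth factor receptor. With shMed1 #4 they were Cav2 group 2 (-0.58), near the gene of caveolin-2, Nfatc3 group 2 (-0.53), in that of a calcium-regulated transcription factor, H4c8 and Gm6657 (-0.44). All but Fgfr1 were lower with both hairpins. The call of each held without any 1 library.

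**Figure D5:**
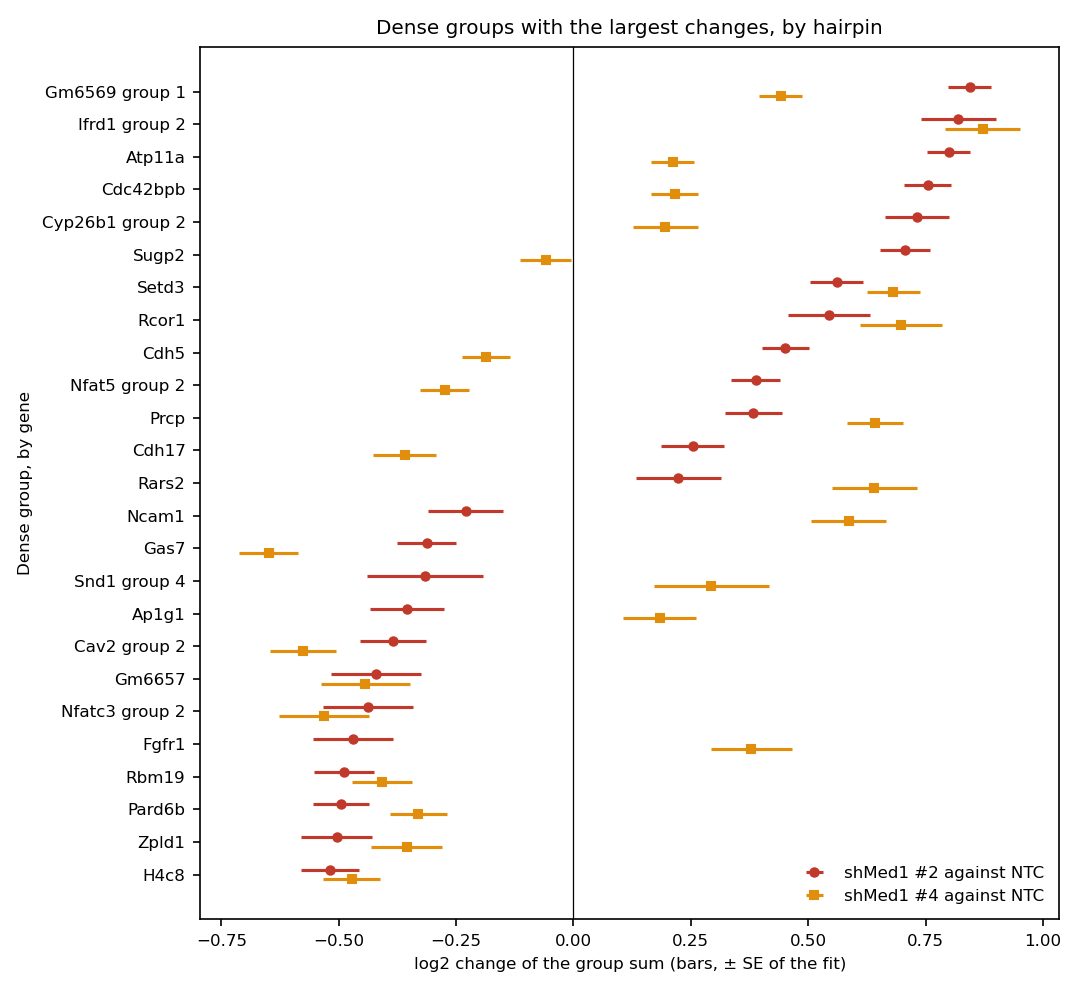
Log2 change of the summed value against NTC (horizontal axis, bars ± SE of the fit) for the dense groups with the largest changes (vertical axis, named by gene), with shMed1 #2 as circles and shMed1 #4 as squares. Ifrd1 group 2 lies at 0.82 and 0.87, and Fgfr1 lies at -0.47 and 0.38 on opposite sides of 0.

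The hairpins differed from each other in many groups. Between shMed1 #4 and shMed1 #2, 195 dense groups (8.83%) were higher with #4 and 654 (29.6%) lower, where 9.46% and 18.1% of all joined groups were called. Of the member peaks, 1343 were higher with #4 and 2605 lower, where 8.48% and 13.0% of all peaks were called. The median log2 difference of the groups, #4 minus #2, was -0.043. The largest differences upward were at Fgfr1 (0.85), Ncam1 (0.82), a neural cell adhesion molecule gene, Snd1 group 4 (0.61) and Ap1g1 (0.54). The largest downward were at Sugp2 (-0.77), Nfat5 group 2 (-0.66), in the gene of the osmotic stress factor, Cdh5 (-0.64) and Cdh17 (-0.61), both cadherin genes.

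Opposite calls were seen in 25 dense groups (1.13%), a share near that over all joined groups (329, 1.12%). Of the 25, 18 were higher with shMed1 #2 and lower with shMed1 #4, and 7 the reverse. Chromosome 8 held 7 of the 25, and 190 of all 2208 dense groups. The Fgfr1 group (chr8:25536583-25545293, 5 peaks) had 303, 329 and 318 with shMed1 #2, 611, 589 and 516 with shMed1 #4, and 468, 442 and 409 with NTC. The 3 groups did not overlap. The Cdh5 group (chr8:104076895-104122219, 8 peaks), in the gene of VE-cadherin of endothelial junctions, had 2433, 2389 and 2508 with shMed1 #2, 1471, 1605 and 1637 with shMed1 #4, and 1827, 1816 and 1718 with NTC. Here shMed1 #2 was highest and shMed1 #4 lowest, again without overlap, with log2 changes of 0.45 and -0.19. Of the endothelial marker list, 1 of 4 genes had a peak at an end, with summed means of 112, 105 and 117 in shMed1 #2, shMed1 #4 and NTC.

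Near cytokine and growth factor genes, chosen after their values were seen, the Il1a group (chr2:129315918-129346993, 5 peaks) had log2 changes of 0.36 with shMed1 #2 and -0.12 with shMed1 #4, and the Nrg1 group 0.21 and -0.14. Il1a encodes interleukin 1 alpha, and Nrg1 a ligand of ERBB receptors. The Il1a sums were 4709, 4540.0 and 4539.7 with shMed1 #2, 3175, 3321 and 3414 with shMed1 #4, and 3613, 3600.5 and 3516 with NTC, in 3 bands that did not overlap.

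Single member peaks changed by more than any sum. Among member peaks with a mean of at least 50, the largest called rise with shMed1 #4 was at a peak of the Dnajb1 group (chr8:83616659-83617160), named for the gene of a heat shock co-chaperone. It had 167, 213 and 184 with shMed1 #2, 356, 223 and 146 with shMed1 #4, and 61.8, 68.2 and 67.6 with NTC. All hairpin values lay above all NTC values, with log2 changes of 1.49 and 1.77. In the Ralgapa2 group, in the gene of a subunit of the Ral GTPase-activating complex, a peak at chr2:146303832-146304333 had 706, 738 and 794 with shMed1 #2, 344, 360.3 and 406 with shMed1 #4, and 328, 244 and 252 with NTC. It was well above both other groups with shMed1 #2, with log2 changes of 1.45 ± 0.0954 with shMed1 #2 and 0.44 ± 0.0954 with shMed1 #4 (limma, adjusted p = 2.90e-17 and 0.000354). In the Itga9 group, in the gene of integrin alpha 9, a peak at chr9:118888570-118889071 had 196, 206 and 241 with shMed1 #2, 340.1, 299 and 220.3 with shMed1 #4, and 100.3, 105 and 89.8 with NTC. It was higher in every hairpin library, by 1.11 and 1.51.

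Other peaks divided the hairpins. In Bcl2l11 group 4, which lay 162.5 kb from the gene of the pro-apoptotic protein BIM, a peak at chr2:128324370-128324871 had 25.5, 34.6 and 34.5 with shMed1 #2, 85.0, 101 and 90.1 with shMed1 #4, and 77.9, 71.0 and 68.6 with NTC. It fell with shMed1 #2 (-1.19) and had 0.34 with shMed1 #4, which did not pass. In the Myl10 group, 50.3 kb from a myosin light chain gene, a peak at chr5:136651340-136651841 had 159.9, 177 and 189 with shMed1 #2, 57.4, 61.3 and 45.6 with shMed1 #4, and 121, 121 and 85.8 with NTC. It rose with shMed1 #2 (0.69) and fell with shMed1 #4 (-0.98).

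The gene lists are described by counts alone, to be read against all dense groups, of which 60.7% were higher and 9.96% lower with shMed1 #2, and 49.0% higher and 8.61% lower with shMed1 #4. No test between a list and the rest was run. Of 39 genes of integrins and focal adhesion, 18 had a dense group and together held 28, of which 19 were higher and 2 lower with shMed1 #2, and 14 higher and 2 lower with shMed1 #4. The shares higher were 67.9% and 50%, the second near that of all dense groups. Of these, Tns3 group 1, in the gene of the focal adhesion protein tensin 3, had 0.33 and 0.28, and Bcar1, the gene of the adaptor p130Cas, 0.19 and 0.30. Tns3 held 4 dense groups, of which 2 were higher with shMed1 #2, 1 with shMed1 #4 and 0 lower with either. Of 41 extracellular matrix genes, 17 held 19 dense groups, of which 13 were higher and 3 lower with shMed1 #2, and 15 higher and 1 lower with shMed1 #4 (68.4% and 78.9% higher). The Timp2 group, at the gene of a metalloproteinase inhibitor, averaged 21844 ± 1485 with shMed1 #2, 20839.6 ± 640.4 with shMed1 #4 and 16292 ± 537 with NTC, with log2 changes of 0.42 and 0.36. Lama5, a laminin gene, had 0.34 and 0.33, and Col4a2, a basement membrane collagen gene, 0.29 and 0.17. The median log2 change of the matrix groups was 0.24 and 0.19, against 0.17 and 0.11 over all dense groups.

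The 16 groups at YAP and TEAD genes were 12 higher and 1 lower with shMed1 #2, and 10 higher and 0 lower with shMed1 #4 (75% and 62.5% higher, against 60.7% and 49.0% of all dense groups). Among them was Ccn1, the gene of a matricellular YAP target, with 0.37 and 0.17, and with peaks weighted equally neither passed (0.14 and -0.016). The 10 groups at TGF-beta and BMP genes were 7 higher and 2 lower with shMed1 #2, and 5 higher and 1 lower with shMed1 #4 (70% and 50% higher). Smad3 group 1, in the gene of a TGF-beta signal transducer, had 0.35 and 0.28. Ltbp2 had 0.26 and 0.056, and the second did not pass. The 10 groups at AP-1 and immediate early genes were 7 higher and 1 lower with shMed1 #2, and 7 higher and 0 lower with shMed1 #4 (70% higher with each). Myc group 1, 103 kb from an end of Myc at the lncRNA gene Pvt1, averaged 6923 ± 430.2 with shMed1 #2, 7082 ± 187 with shMed1 #4 and 5634 ± 27.4 with NTC, with log2 changes of 0.30 and 0.33. The Fosb group, at the gene of an AP-1 factor, had 0.25 and 0.13. Its call with shMed1 #4 was lost without shMed1 #4 replicate 1 (0.069) and with equal totals (0.059). The Ier3 group of this list had -0.078 and 0.049 and passed with neither.

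The 8 groups at mesenchymal regulators were 7 higher and 1 lower with shMed1 #2, and 6 higher and 0 lower with shMed1 #4 (87.5% and 75% higher, against 60.7% and 49.0% of all dense groups). Runx2 group 1, in the gene of the osteoblast factor, averaged 11124 ± 326 with shMed1 #2, 10441 ± 37.0 with shMed1 #4 and 8017 ± 442 with NTC, and Runx1, in another RUNX factor gene, had 0.27 and 0.28. The 4 groups at epithelial genes were 2 higher and 0 lower with shMed1 #2, and 1 higher and 1 lower with shMed1 #4. These were Krt8 (0.13 and 0.11), Tfap2a (0.14 and -0.077), Cdh1 (-0.10 and -0.17) and 1 other. The Krt8 calls were lost with equal totals (0.046 and 0.041) and the one with shMed1 #4 also without shMed1 #4 replicate 2 (0.097) or NTC replicate 3 (0.090). The Tfap2a call with shMed1 #2 was lost with equal totals (0.055), and the Cdh1 call without shMed1 #4 replicate 1 (-0.14) or NTC replicate 3 (-0.15).

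Of 5 groups at inflammatory and NF-kappaB genes, 3 were higher and 1 lower with shMed1 #2, and 3 higher and 0 lower with shMed1 #4 (60% higher with each, against 60.7% and 49.0% of all dense groups). The group 32.2 kb from Csf2, the gene of a myeloid growth factor, had 10619.8, 10812 and 11199 with shMed1 #2, 8710.3, 8589 and 8306 with shMed1 #4, and 7209, 6975 and 6758 with NTC. The 3 groups lay apart in that order, with log2 changes of 0.64 ± 0.0349 and 0.29 ± 0.0349 (limma, adjusted p = 1.88e-21 and 1.37e-09). Socs3, a cytokine signal inhibitor gene, had 0.19 and 0.23, and Lif, a cytokine gene, 0.20 and 0.24.

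Of the 8 groups at genes of enhancer coactivators, 3 were higher and 3 lower with shMed1 #2, and 1 higher and 2 lower with shMed1 #4 (37.5% and 12.5% higher, against 60.7% and 49.0% of all dense groups). Med13l group 1, in the gene of a Mediator kinase module subunit, had 0.59 and 0.47, and Kmt2d, the gene of an enhancer histone methyltransferase, -0.30 and -0.25. Cdk19, the gene of a Mediator kinase, had 0.40 and 0.094, and the second did not pass. Med1 had no dense group. The 8 groups at dormancy-linked genes were 4 higher and 3 lower with shMed1 #2, and 2 higher and 0 lower with shMed1 #4. The shares higher were 50% and 25%, against 60.7% and 49.0% of all dense groups. Those lower were 37.5% and 0%, against 9.96% and 8.61%. Bhlhe40, a circadian and stress repressor gene, had 0.45 and 0.27, and Gas6, the gene of the AXL ligand, 0.24 and 0.51. Axl had 0.12 and 0.070, and the second did not pass. No gene of 13 blood markers had a dense group, 2 endothelial or fat markers had 2 and 1 neural marker had 2.

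Of the 1005 microRNA hairpins in the RefSeq sequence table, 83 lay in 70 dense groups. The gene annotation put at least 1, wholly or in part, in 80 dense groups. Of these 80, 51 were higher and 8 lower with shMed1 #2 (63.75% and 10%), and 39 higher and 3 lower with shMed1 #4 (48.75% and 3.75%), against 60.7% and 9.96%, and 49.0% and 8.61%, of all dense groups. The Vmp1 group, which spans Mir21a, and Ifne group 1, which spans Mir31, passed with neither hairpin. The Gm40514 group, which spans Mir125b-1, was lower with shMed1 #2 (-0.13) and had -0.042 with shMed1 #4, which did not pass. An lncRNA gene lay in 816 dense groups (37.0%).

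Few members lay at promoter windows. Of the 15770 members, 381 (2.42%) overlapped 441 RefSeq promoter windows, 245 of lncRNA genes and 196 of protein-coding genes. The letters TGANTCA stood in 17.5% of the 440 distinct windows, in 14.2% of windows at other distal peaks, in 4.81% of windows at peaks within 2 kb of a gene end and in 7.79% of all 32544 windows of the table. The 59 members with the letters inside the peak were 29 higher and 3 lower with shMed1 #2 (49.2% and 5.08%, median log2 change 0.22), and 22 higher and 3 lower with shMed1 #4 (37.3% and 5.08%, 0.093). Only the part of a peak that a window covers could be read, so the other members may hold the letters elsewhere in the peak. These 322, with no match in the part read, were 81 higher and 92 lower with shMed1 #2 (25.2% and 28.6%, median -0.064). With shMed1 #4 they were 81 higher and 45 lower (25.2% and 14.0%, 0.025). Over all members the shares were 32.99% and 12.9% with shMed1 #2, and 24.8% and 8.45% with shMed1 #4. No test between these sets was run. A match is a description of letters and says nothing of binding.

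The Gm32287 window shown above is an example with the letters inside the peak (chr2:167777492-167777993), in Cebpb group 1, the 13th by NTC sum. The peak had 7312, 7867 and 8052 with shMed1 #2, 7981, 7867.5 and 7291 with shMed1 #4, and 6202, 6157 and 5774 with NTC. All hairpin values lay above all NTC values, with a log2 change of 0.36 ± 0.0366 with shMed1 #2 and 0.35 ± 0.0366 with shMed1 #4 (limma, adjusted p = 2.64e-11 and 1.26e-10). The Lmna window shown beside it also holds the letters inside its peak, which passed with neither hairpin.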

How the data were processed

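Open chromatin was measured by ATAC-seq in 9 libraries, 3 per group. Per the submitters' processing notes, the tools were Trim Galore, BWA, MACS2 and featureCounts from Subread on mm10 (GRCm38); versions, duplicate removal and any transposase offset: not given in the sources used here. For every peak the authors deposited a signal, which the file calls DESeq2-normalized counts; 34.8 to 53.7 M reads in peaks per library lie behind it, which sets its precision. Coordinates are those of the file, which does not say if the first base is 0 or 1.

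Dense groups were built from RefSeq protein-coding gene ends (GRCm38.p6, 21631 genes). Log2(value + 1) of peaks, and log2(sum + 1) of joined groups, with a mean of at least 10 were fitted in limma 3.58.1 with trend (R 4.3.3, data.table version 1.17.8) over 75930 peaks (6 removed) and 29465 groups. P-values are two-sided and Benjamini-Hochberg adjusted over each contrast, with a threshold of 0.05. Errors are SEs of the fit or SDs (n = 3). The fit was tested on simulated data. Summaries used Python 3.11.15, pandas 2.3.3, numpy 2.4.6 and matplotlib 3.10.9.

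Named were the 12 groups with the largest NTC sums, those with most peaks or longest span, the 5 groups changed most each way per hairpin and the 4 each way between hairpins, the strongest or most changed member peaks, and leading groups of each gene list. The members and lists were chosen with earlier results of these data known.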

Additional observations from a re-analysis of the deposited data

Results flagged for a closer look

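In 25 dense groups the hairpins were called in opposite directions against NTC with a called difference between them. Opposite calls were made in 1.13% of the dense groups, against 1.12% (329) of all joined groups. Among the groups named by rule, the difference itself (log2, shMed1 #4 minus shMed1 #2, limma) was called where the hairpins fell on different sides of the threshold or of 0. Values of #4 above #2 were 0.19 for Ppara, 0.85 for Fgfr1, 0.82 for Ncam1, 0.61 for Snd1 group 4 and 0.54 for Ap1g1. Values of #4 below #2 were -0.77 for Sugp2, -0.66 for Nfat5 group 2, -0.64 for Cdh5, -0.61 for Cdh17, -0.31 for Cdk19, -0.22 for Tfap2a, -0.22 for Rbfox3 group 1, -0.20 for Ltbp2 and -0.13 for Myof group 1. For Snd1 group 4 the call with shMed1 #2 against NTC was lost without shMed1 #2 replicate 1 (-0.16), NTC replicate 1 (-0.22) or NTC replicate 2 (-0.31). For Ncam1 it was lost without shMed1 #2 replicate 1 (-0.18) or NTC replicate 2 (-0.21), and for Cdh17 without NTC replicate 3 (0.17).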

How the results depend on the processing

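The 28 settings included changes of the group rule, the members and the ranking, whose effect on changes of named groups and peaks was not checked. Under the other settings, 5034 comparisons of named groups and peaks with the values above were made. Of these, 4744 stayed on the same side of the threshold, 206 lost a call and 66 gained one. Another 18 changed sign where at least 1 of the compared values passed. With equal totals the shares lower were 19.99% and 14.3% of members and 18.8% and 17.3% of dense groups with shMed1 #2 and shMed1 #4. With peaks weighted equally, dense groups were higher in 28.5%, 17.6% and 3.89% and lower in 5.03%, 2.85% and 12.3% for shMed1 #2 against NTC, shMed1 #4 against NTC and #4 against #2. Joining up to 6 kb put groups higher with #4 than #2 at 13.9%, and groups of at least 8 peaks were lower with shMed1 #2 in 5.56%. Ranked per kb of span, 1 of the 12 leading groups stayed. Without 1 library, members lower with shMed1 #4 ranged from 4.97% to 9.27%.

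Sign changes with shMed1 #4 under quantile scaling were at the groups Zswim4 (-0.046) and Lmna (-0.017) and at the strongest peaks of Frmd8 (-0.045), Zswim4 (-0.037), Lmna (-0.17) and Irf2bp2 group 1 (-0.039, and -0.055 with shMed1 #2). Under cyclic loess they were at the Lmna group (-0.0019) and its strongest peak (-0.088). With peaks weighted equally they were at Lmna (-0.0091), Ccn1 (-0.016) and Cdc42bpb (-0.027) with shMed1 #4, at Nfat5 group 2 (-0.16) with shMed1 #2, at Cald1 (-0.15 and -0.11) with both, and at Crim1 group 1 (-0.033, -0.0067, and 0.026 for #4 against #2). The causes were not tested.

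Same-numbered libraries showed little shared deviation (r from -0.084 to 0.033 across peaks). Weak peaks, where counting scatter is large, are included, so this cannot tell whether the numbers mark a shared culture. With the replicate number as a block, 59.7% and 47.1% of dense groups were higher and 9.51% and 8.33% lower with shMed1 #2 and shMed1 #4. Leaving out members at promoter windows, chosen after seeing the data, gave 33.1% higher and 12.6% lower with shMed1 #2. Values were whole multiples of 1 step per library, the lowest at 2 or 3 steps, and the planned count tests in edgeR and DESeq2 on such multiples were not run.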
